A study of Homo sapiens with 3 samples.

Results

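The 10 genes described here encode the core of the transforming growth factor beta (TGF-beta) pathway: the ligands TGFB1 and TGFB2, the receptors TGFBR1 and TGFBR2, the signal carriers SMAD2, SMAD3 and SMAD4, the inhibitory SMAD6 and SMAD7, and the co-repressor SKIL. They were measured in FaDu cells, an established squamous carcinoma line of the hypopharynx, on Affymetrix PrimeView arrays. The untreated group had 2 arrays, from cells given distilled water, and the treated group had 1 array, from cells given 10 µg/ml of NSC-631570, an extract of the plant Chelidonium majus, for 48 h. All cells grew in RPMI 1640 medium with fetal calf serum. Every probe set that names exactly 1 gene, that gene being among the 10, was taken, which gave 36 of the 49395 probe sets on the array. Of these 36 probe sets, 21 had a mean signal above the filter on low values (5.85 on the log2 scale), and they covered 8 genes. TGFB2 and SMAD7 had none above it and were tested only without the filter.

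TGF-beta ligands are secreted in a latent form and, once released, bind a type II receptor (TGFBR2), which activates a type I receptor (TGFBR1). The type I receptor phosphorylates SMAD2 and SMAD3, which join SMAD4 and act on genes in the nucleus. SMAD6 and SMAD7 hold the receptors in check, SKIL represses SMAD complexes on DNA, and SMAD7 and SKIL are themselves classical targets of the pathway. In squamous epithelium the pathway restrains growth, and in squamous carcinomas it is also known for promoting invasion. FaDu has been described as lacking functional SMAD4 protein, which an RNA array cannot show.

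None of the 8 tested genes passed the limma test, in which 8 of 11932 genes (0.067%) were called at an adjusted p under 0.05. At an unadjusted p under 0.05 there were 2 of 8, SMAD3 and TGFBR1, both higher, where 14.4% of all tested genes met that bound, 12.2% as higher and 2.24% as lower. With every probe set tested singly, 799 of 27249 (2.93%) were called and none of the 21 from these genes. Of the 21, 5 had an unadjusted p under 0.05 (3 higher, 2 lower), against 17.9% of all tested probe sets (8.31% higher, 9.55% lower). No gene of the 8 lay at least 2-fold outside both untreated arrays, which 1.11% of tested genes did. SMAD3, with 1.75-fold, was the gene of the 8 farthest from the untreated mean.

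The treated condition has 1 array, so its own spread is unknown, and limma takes it to vary like the untreated arrays, whose difference gives the 1 residual degree of freedom. An exact permutation of 3 arrays cannot go below p = 0.333. The labels name no separate cultures, and p-values then cover only the spread between these arrays, which may be technical. Array medians lay between 6.55 and 6.62. Of the squamous epithelial markers fixed for the check of the cell type, 4 had a probe set of their own (KRT5, KRT14, CDH1 and EPCAM), with signals from 10.35 to 13.39. Of the markers of other cell types, 2 of 6 fibroblast, 3 of 4 immune and 3 of 3 endothelial markers named on the array passed the filter, and the pan-leukocyte marker PTPRC and the fibroblast markers DCN and LUM did not. Mean signals in untreated 1, untreated 2 and the treated array were 5.07, 4.90 and 4.98 for the fibroblast list, 6.92, 6.90 and 6.87 for the endothelial list and 6.10, 6.02 and 6.69 for the immune list. The lysosomal and macrophage marker CD68 read 7.61, 8.55 and 9.53, and CD14, a monocyte marker, read 7.03, 6.17 and 7.42. The part of other cell types in the results was not tested. In the treated array the control probe sets at the 5′ end read 2.59-fold lower for ACTB and 1.39-fold lower for GAPDH than the untreated mean, while the 3′ ones differed by 0.20 and −0.01 on the log2 scale.

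**Figure D1:**
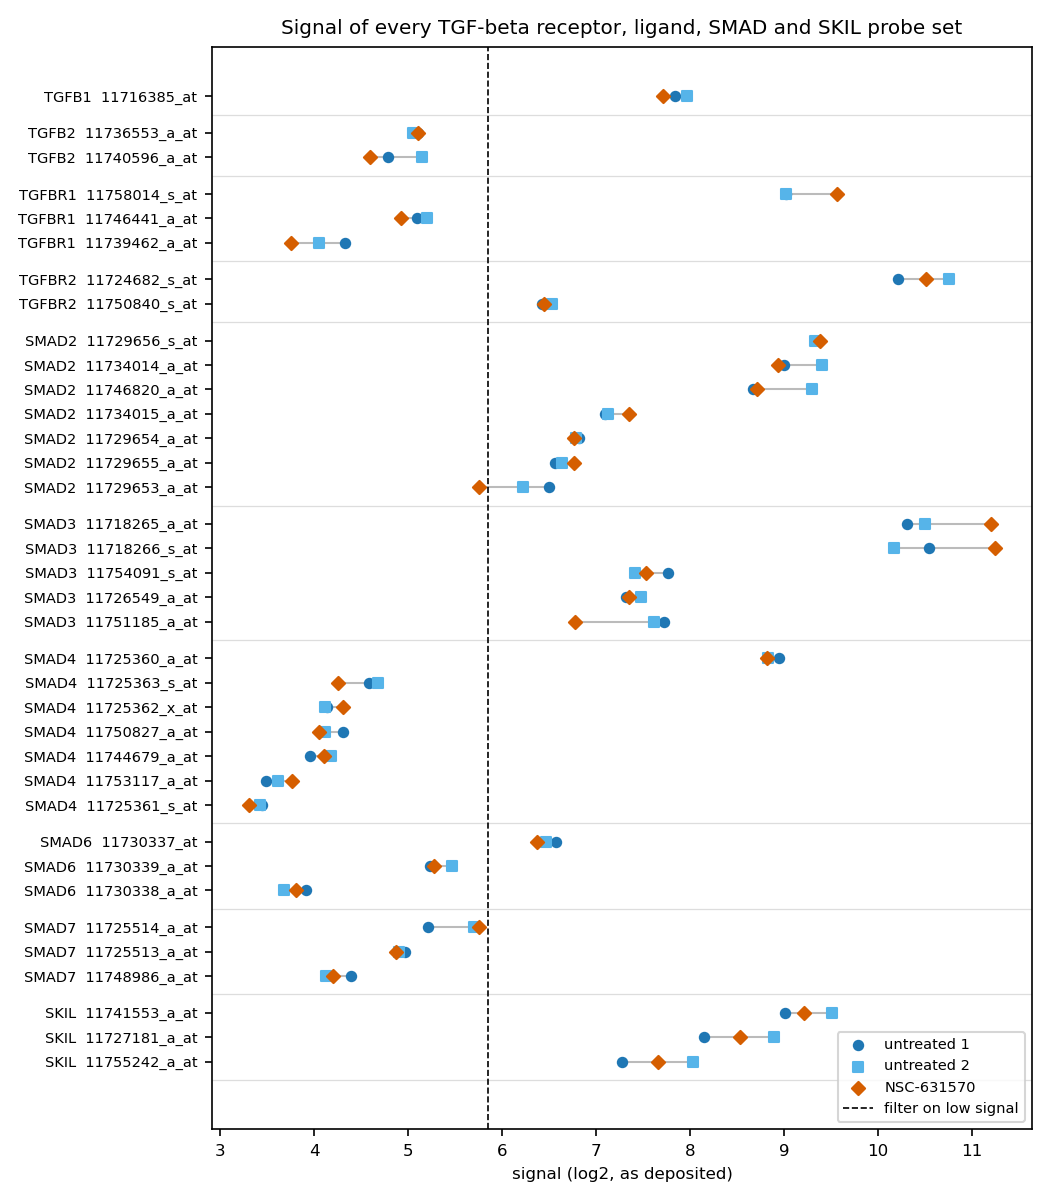
Log2 signal of all 36 probe sets (rows, by gene) in untreated 1 (circles), untreated 2 (squares) and NSC-631570 (diamonds), with the filter at 5.85 as a dashed line. The treated value of SMAD3 lies above both untreated values in 2 probe sets and below both in another, and all 3 SKIL probe sets place it between the untreated arrays.

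TGFB1 and the brighter probe set of TGFB2 gave values close to the untreated arrays. TGFB1, the main ligand of epithelial and immune cells, has 1 probe set, with 7.84 and 7.97 in the controls against 7.71 after treatment. The treated value was thus the lowest, by less than the gap between the controls (log2 difference −0.19 ± 0.22, SE, limma adjusted p = 0.781, 95% interval −0.69 to 0.31). TGFB2, a ligand best known from development, read 5.11, 5.05 and 5.10 in untreated 1, untreated 2 and the treated array on its brighter probe set. The other TGFB2 probe set read 4.78, 5.15 and 4.60, a difference of −0.37. The mean difference over the 2 TGFB2 probe sets was −0.17. Both lie under the filter, so no level above background can be claimed for TGFB2 here. Without the filter the brighter probe set had a difference of 0.02 (limma adjusted p = 0.991).

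The receptors differed from each other in how they read. TGFBR1, the type I receptor kinase, read 9.02 in each untreated array and 9.56 in the treated array on its brightest probe set. The untreated pair was 0.002 apart, where the median gap over all tested genes was 0.18, and a gap of 2 arrays measures spread poorly. The treated array was above both, and the difference was 1.46-fold (log2 0.54 ± 0.21, 95% interval 0.05 to 1.04, unadjusted p = 0.0354, limma adjusted p = 0.301). This probe set's suffix, _s_at, marks possible cross-hybridisation, as do those of the brightest probe sets of TGFBR2 and SMAD2 and of the second of SMAD3. The other probe sets of TGFBR1 went the opposite way, with 5.09, 5.21 and 4.93, and with 4.33, 4.05 and 3.76, in untreated 1, untreated 2 and the treated array. Both of those lie under the filter, at differences of −0.22 and −0.43, so the mean over all 3 probe sets of TGFBR1 was −0.04. Across the array, the brightest probe sets of genes with 2 or more tested ones had a median difference of 0.12 and the less bright ones −0.05. TGFBR2, the type II receptor that binds the ligand first, read 10.21 and 10.75 untreated, then 10.51 treated. The treated value fell between the untreated ones (0.03 ± 0.27, 95% interval −0.60 to 0.65, adjusted p = 0.983, and −0.17 when arrays were centred on the tested genes), and the second probe set did the same with 6.42, 6.53 and 6.45.

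SMAD3 had the widest differences of the 10 genes, and they did not all point one way. SMAD3 is the receptor-regulated SMAD that binds DNA directly. Its brightest probe set read 10.31 and 10.49 without the extract and 11.21 with it, a difference of 0.80 ± 0.22 (1.75-fold, 95% interval 0.29 to 1.32, unadjusted p = 0.0068, limma adjusted p = 0.176). A second bright SMAD3 probe set read 10.54, 10.17 and 11.24, a difference of 0.88 ± 0.25 (adjusted p = 0.112 over probe sets). In both the treated array was the highest, although they ordered the untreated arrays differently. A further SMAD3 probe set read 7.73 and 7.62 in the controls against 6.77 after treatment, a difference of −0.90 ± 0.22 (adjusted p = 0.0804). Here the treated array was the lowest by 0.84, while on the brightest probe set it was the highest by 0.71. The remaining SMAD3 probe sets read 7.77, 7.42 and 7.53, and 7.32, 7.48 and 7.36, with the treated array between the untreated ones in each (differences −0.06 and −0.04).

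The 5 probe sets of SMAD3 therefore spanned 1.78 log2 units in their differences. Of 537 genes with 5 tested probe sets, 5.21% had a span at least as wide, and the median span was 0.68. The mean over the 5 was 0.14 (adjusted p = 0.796). The position of each probe set along the transcript was not analysed here. The 5′ control probe sets that were lower in the treated array were not tested for a part in this disagreement. From untreated 1 and untreated 2 singly, the brightest SMAD3 probe set differed by 0.90 and 0.71, and 0.61 from their mean when arrays were centred on the tested genes.

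RefSeq's promoter table lists 5 start sites for SMAD3 and 8 for TGFBR1. The 250 bases before the first start are shown because SMAD3 had the widest differences. They come from that table (GRCh38.p14, chr15:67065352-67065601, plus strand), printed 5′ to 3′, and capitals mark motif matches on either strand. The motifs searched were CAGAC and GTCTAGAC, the short and the palindromic SMAD-binding element, GGCGC, its GC-rich form, TGANTCA, the AP-1 site, GGAATG, the TEAD site, and TNGCGTG, the xenobiotic response element. The first SMAD3 start holds 7 matches to GGCGC, some overlapping, and none to the others.
SMAD3: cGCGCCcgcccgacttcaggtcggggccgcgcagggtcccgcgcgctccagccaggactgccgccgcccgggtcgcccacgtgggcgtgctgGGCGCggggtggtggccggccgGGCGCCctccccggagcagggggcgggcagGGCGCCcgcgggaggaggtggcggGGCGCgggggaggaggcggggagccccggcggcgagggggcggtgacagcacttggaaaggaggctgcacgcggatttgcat
Of all 35116 start windows of this length, 44.5% hold GGCGC and 38.0% hold CAGAC. Among the 25 windows of the 10 genes, 12 hold GGCGC and 10 hold CAGAC. The only match to TGANTCA among them lies before the third SMAD3 start, and 6.57% of all windows hold it. TNGCGTG, which 4.52% of windows hold, was matched before the TGFB1 start alone. These matches are letters in a window, not sites shown to be bound.

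SMAD2, the receptor-regulated partner of SMAD3, was covered by 7 probe sets, all above the filter, and they split. The brightest read 9.37 and 9.33 untreated, then 9.39 treated (0.04 ± 0.21, 95% interval −0.46 to 0.53, limma adjusted p = 0.967, turning to −0.16 when arrays were centred on the tested genes). All 3 arrays of that probe set lay within 0.06. Of the 7 probe sets of SMAD2, 3 placed the treated array above both untreated arrays, 3 below both and 1 between. The lowest difference, −0.61 ± 0.24 (adjusted p = 0.224 over probe sets), came from a probe set with 6.50 and 6.22 without the extract and 5.75 with it. The highest, 0.24 ± 0.22, came from one with 7.09, 7.12 and 7.35. Next to it stood a probe set with 6.56, 6.64 and 6.76. On 2 bright SMAD2 probe sets untreated 2 stood apart instead, with 9.00, 9.41 and 8.93, and with 8.67, 9.30 and 8.71. The last read 6.82, 6.78 and 6.77. The span of 0.85 over the 7 probe sets was near the median of 0.77 for the 132 genes with as many.

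SMAD4, the common partner that carries the receptor-regulated SMADs' signal, read 8.95 and 8.84 in the controls against 8.82 after treatment on its brightest probe set (−0.07 ± 0.22, 95% interval −0.57 to 0.43, limma adjusted p = 0.934). The treated value was the lowest by 0.01. The 6 other SMAD4 probe sets lay between 3.31 and 4.68 in every array, under the filter, and 2 of them were annotated from the same source sequence as the brightest. Their differences ran from −0.37 to 0.22, with the treated array above both untreated arrays in 2, below both in 3 and between in 1. So only 1 of 7 SMAD4 probe sets had signal above the filter, a pattern that was the same in treated and untreated cells.

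**Figure D2:**
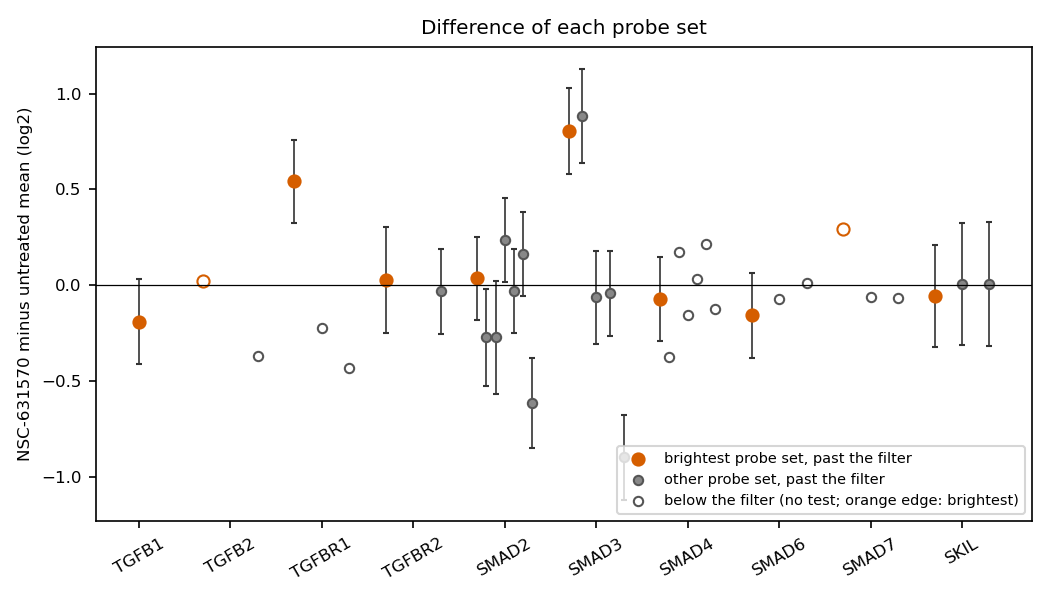
Treated value minus the untreated mean (log2) for each of the 36 probe sets, ordered within a gene from bright to dim, with the limma SE for those past the filter. SMAD3 spans from −0.90 to 0.88, while the 3 SKIL probe sets lie within 0.06 of 0.

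The inhibitory SMADs had 1 probe set above the filter, for SMAD6, and 5 below it. SMAD6, which is best known for blocking the bone morphogenetic protein (BMP) branch, read 6.58 and 6.47 untreated, then 6.37 treated on the probe set above the filter. The treated value was the lowest of the 3, and the difference of −0.16 ± 0.22 was not called (limma adjusted p = 0.827, 95% interval −0.66 to 0.34). Its 2 other probe sets lay between 3.68 and 5.46 with the treated array between the untreated ones. SMAD7, the feedback inhibitor that TGF-beta itself induces, read 5.22 and 5.70 without the extract and 5.75 with it on its brightest probe set. That treated value is only 0.05 above untreated 2, and both other SMAD7 probe sets, with 4.97, 4.91 and 4.88 and with 4.39, 4.13 and 4.20, differed by −0.06. All 3 are under the filter, and without it the brightest had a difference of 0.29 (limma adjusted p = 0.766).

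The start of SMAD6 is shown because it is the only one of the 25 windows with the palindromic SMAD-binding element GTCTAGAC, which 0.182% of all windows hold (GRCh38.p14, chr15:66701986-66702235, plus strand, capitals marking GTCTAGAC and GGCGC). The palindrome begins 12 bases before the start, and GGCGC is matched 3 times.
SMAD6: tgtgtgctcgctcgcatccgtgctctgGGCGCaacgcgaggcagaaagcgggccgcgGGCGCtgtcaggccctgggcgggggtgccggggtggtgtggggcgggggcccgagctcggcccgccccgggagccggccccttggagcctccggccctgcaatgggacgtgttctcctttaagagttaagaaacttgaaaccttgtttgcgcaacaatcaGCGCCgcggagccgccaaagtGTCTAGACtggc

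SKIL, the SMAD co-repressor also known as SnoN, was read alike by all its probe sets. Its 3 probe sets read 9.01, 9.51 and 9.21, then 8.15, 8.89 and 8.53, and last 7.28, 8.03 and 7.66, in untreated 1, untreated 2 and the treated array. Each time untreated 2 was the highest, untreated 1 the lowest and the treated array near the middle. The differences from the untreated mean were −0.05, 0.01 and 0.01 (limma adjusted p = 0.963 for the brightest, 95% interval −0.66 to 0.55). The untreated arrays themselves were 0.50, 0.74 and 0.76 apart, and a treated value between them must differ from either by less. Of 1942 genes with 3 tested probe sets, 96.8% had a span of differences at least as wide as the 0.06 of SKIL. TGFBR2 had the same order of arrays, with an untreated gap of 0.54 on its brightest probe set.

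**Figure D3:**
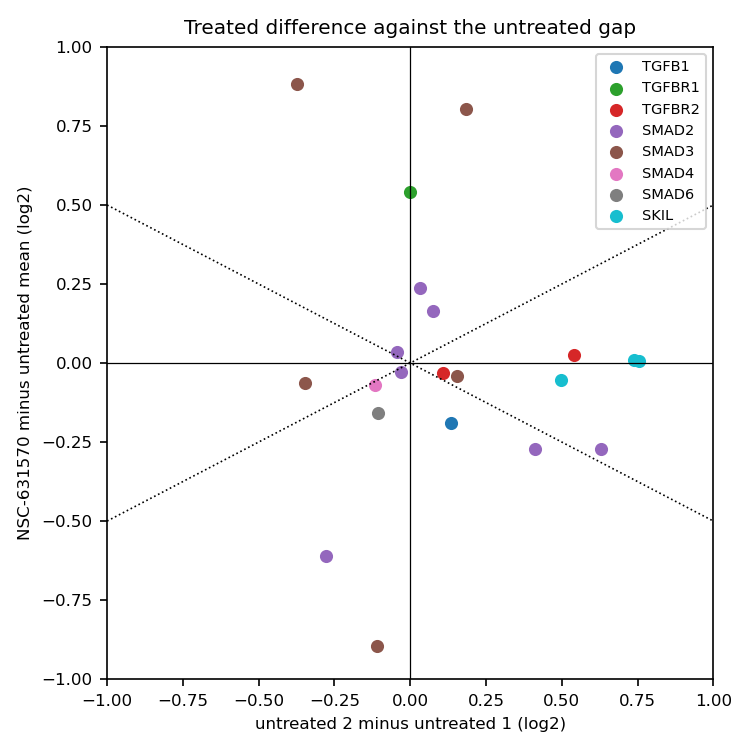
Treated minus untreated mean against untreated 2 minus untreated 1 (both log2) for the 21 probe sets above the filter, by gene. Points between the dotted lines on the left and right have the treated value between the untreated ones, which holds for 8 of the 21, among them every SKIL and TGFBR2 probe set.

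Over all 21 probe sets above the filter, the treated array was above both untreated arrays in 6, below both in 7 and between in 8. Among all tested probe sets these shares were 40.7% above, 34.5% below and 24.8% between. Under the filter, 3 of 15 lay above both, 7 below both and 5 between. In 9 of the 21 the treated array differed from the untreated mean by more than the gap between the untreated arrays, where 57.0% of all tested probe sets did. The median difference was −0.03 for the 21 and 0.03 for all tested probe sets. By gene, 3 of the 8 lay above both untreated arrays and 3 below both, where 51.6% and 22.5% of all tested genes did.

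Around these 10 genes, a list of 68 further genes of the pathway was read in the same fit, of which 65 were named on the array and 55 tested. The list was chosen with earlier results of these data known. Its counts, CCN2 among them, are therefore a description and not an independent test of the pathway. CCN2 fell, none rose, and 54 did not pass at an adjusted p under 0.05 in limma (0.067% of all genes passed). At an unadjusted p under 0.05 in limma there were 13 of the 55, 11 of them higher. Of all tested genes 14.4% met that bound, 12.2% as higher and 2.24% as lower. The list's median difference was 0.11, against 0.12 for all tested genes. The treated array lay above both untreated arrays in 27 of the 55 (51.6% of all genes) and below both in 10 (22.5%). Centring the arrays on the tested genes moved every difference by −0.20, which turns the sign of positive differences smaller than that.

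CCN2, a matricellular protein induced by TGF-beta and by the Hippo effectors YAP and TAZ, read 9.95 and 9.90 in the controls against 7.41 after treatment. The treated array was far below a close untreated pair, a 5.71-fold lower signal (log2 difference −2.51 ± 0.21, limma adjusted p = 0.0118), and its 2 other probe sets differed by −2.37 and −2.62. The 250 bases before its start are shown because it was the only called gene of the pathway (GRCh38.p14, chr6:131951373-131951622, minus strand, printed 5′ to 3′ along the gene). Capitals mark CAGAC once, 177 bases before the start, and GGAATG 3 times, at 169, 104 and 95 bases before it. GGAATG occurs in 11.9% of all windows.
CCN2: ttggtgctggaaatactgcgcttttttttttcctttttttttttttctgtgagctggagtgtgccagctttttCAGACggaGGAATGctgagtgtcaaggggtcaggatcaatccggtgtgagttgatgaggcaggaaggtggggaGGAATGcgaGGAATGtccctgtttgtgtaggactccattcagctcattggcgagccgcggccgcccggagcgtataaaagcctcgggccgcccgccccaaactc
Of the 12 tested targets, the other 11 did not pass. CDKN1A, the p21 cell cycle inhibitor, read 10.35 and 10.37 untreated, then 11.15 treated (0.80 ± 0.21, 1.74-fold, adjusted p = 0.171), and its other probe set differed by 0.65. FN1, which encodes the matrix protein fibronectin, read 6.76, 7.26 and 7.29, which is 0.54 above untreated 1 and 0.04 above untreated 2, and its 7 other probe sets had a median difference of 0.06. The median over the targets was 0.01. Of the targets, 4 were above both untreated arrays, 3 below both and 5 between (51.6%, 22.5% and 25.9% of all tested genes).

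The genes listed under latency and activation of the ligand held wide differences in both directions, none of which passed. LTBP3, a latent TGF-beta binding protein, read 9.71 and 9.19 without the extract and 10.42 with it (0.98 ± 0.27, 1.97-fold, limma adjusted p = 0.174). Its 3 other probe sets differed by 0.61 to 1.02, so all 4 stood on the same side. LTBP2, a relative of LTBP3, read 6.52, 6.85 and 7.66 (0.98 ± 0.24, adjusted p = 0.147), with its other probe set at 1.45. THBS1, thrombospondin 1, an activator of latent TGF-beta, read 10.24 and 11.13 in the controls against 9.94 after treatment (−0.75 ± 0.35, adjusted p = 0.383), and its 4 other probe sets ran from −1.09 to −0.50. The untreated arrays of THBS1 were 0.89 apart, and the treated value differed by −0.30 from untreated 1 and by −1.19 from untreated 2. Of the 7 tested genes, 3 were above both untreated arrays and 2 below both (51.6% and 22.5% of all tested genes). The median of the 7 was 0.03.

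Among the other receptors, 7 of 9 tested genes were above both untreated arrays (51.6% of all tested genes) and none passed the test. Their median difference was 0.53 on brightest probe sets, 0.28 when each gene's probe sets were averaged and 0.34 when arrays were centred on the tested genes. The medians over all genes tested in those settings were 0.12, 0.04 and −0.08. The 0.04 covers genes whose averaged signal passed the filter, while the 0.28 covers receptors whose brightest probe set did. ACVR1B, named after its values were seen, stood at 0.24 on its brightest probe set and between −1.65 and −0.39 on its 4 others. ACVR1, a type I receptor of the BMP and activin branch, read 8.64, 8.90 and 9.52 (0.75 ± 0.23, limma adjusted p = 0.204), though its 3 other probe sets ran from −0.38 to 0.64. ACVR1C, the receptor ALK7, differed by 0.61 with untreated values of 6.59 and 5.88, and its 2 other probe sets by 0.07 and 0.83. ENG, or endoglin, a co-receptor, read 8.30 and 8.24 untreated, then 8.83 treated (0.56 ± 0.21, adjusted p = 0.287), and its 4 other probe sets lay between 0.09 and 0.73.

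The other ligands had a median difference of 0.05 over 8 tested genes. Of these, 3 were above both untreated arrays and 1 below both (51.6% and 22.5% of all tested genes). BMP7 read 8.17 and 7.54 without the extract and 8.66 with it (0.80 ± 0.29, limma adjusted p = 0.265), and its other probe set differed by 0.24. BMP2 read 7.05, 7.79 and 7.88 in untreated 1, untreated 2 and the treated array, so it differed by 0.83 from the first control and by 0.09 from the second. GDF11 read 7.97, 7.89 and 8.16, a difference of 0.23.

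Of 12 tested inhibitors, none passed, 7 were above both untreated arrays and 1 below both (51.6% and 22.5% of all tested genes). Their median difference was 0.21 on brightest probe sets. It was 0.09 with each gene's probe sets averaged and 0.01 with arrays centred on the tested genes. The medians over all genes tested in those settings were 0.12, 0.04 and −0.08. Here too the 0.04 covers genes whose averaged signal passed the filter, while the 0.09 covers inhibitors whose brightest probe set did. SKI, the closest relative of SKIL, read 9.56 and 8.86 in the controls against 10.23 after treatment (1.02 ± 0.30, 2.03-fold, limma adjusted p = 0.193). Its 4 other probe sets ran from −1.19 to 0.78, so SKI, like SMAD3, was read in opposite directions. SMURF2, a ubiquitin ligase that SMAD7 brings to the receptors, differed by 0.57 on its brightest probe set and by −0.22 at the median of 2 others. FSTL3, which binds activins, differed by 0.56, with 0.12 at the median of 2 others. Among 7 tested BMP SMADs and SMAD cofactors the median was 0.01. The acetyltransferase gene EP300 was the farthest, with 8.80, 8.46 and 8.06 (−0.57 ± 0.24, adjusted p = 0.327). SMAD1 differed by −0.20 on its brightest probe set and by 0.10 on its other. The SMAD4 ubiquitin ligase gene TRIM33 differed by 0.24, and its 2 other probe sets by 0.20 and 0.23.

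**Figure D4:**
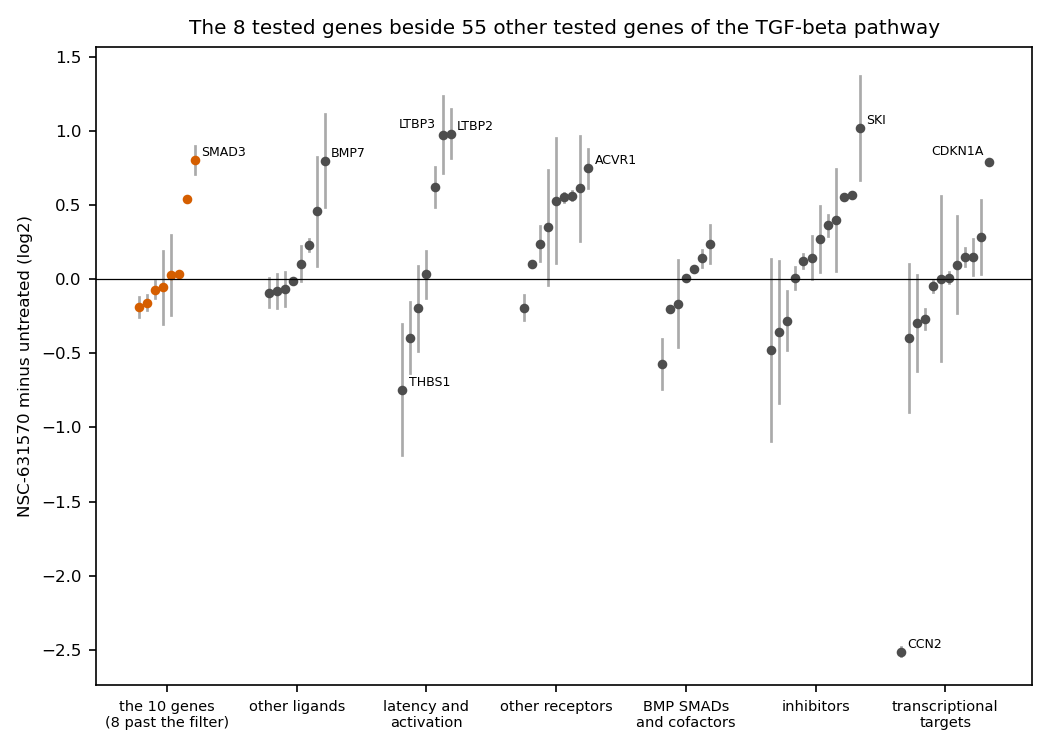
Treated minus untreated (log2) on the brightest probe set of the 8 tested genes and of 55 other pathway genes, by role. Points are differences from the untreated mean, bars join the differences from untreated 1 and untreated 2 singly, and CCN2 at −2.51 is the only gene past the limma threshold.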

How the data were processed

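Per the labels, total RNA (100 ng) was amplified and labelled with biotin, and the deposited log2 signals, 1 per probe set and array, were produced by the authors in Affymetrix Expression Console, as the submitters' processing notes say. Not given in the sources used here are its algorithm, settings and version and the normalisation. The scale was read from the values, which were used as deposited.

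Of 49395 probe sets, 44988 named 1 gene in the platform annotation, 1832 several, 2473 none, and 102 were array controls. The 18132 genes were each represented by their brightest probe set (mean of 3 arrays), and the filter was the 40th percentile of all probe sets (5.85), which left 11932 genes and 27249 probe sets. The arrays were compared in limma 3.58.1 under R 4.3.3, with Benjamini-Hochberg adjustment over all tested genes or probe sets and a threshold of 0.05. Prior degrees of freedom were 6.90 for genes. The fit was also run on simulated arrays. Those were drawn from limma's own variance estimates and gave the treated array the untreated spread, so they cannot check that assumption. ± is limma's SE and intervals are its 95% intervals. No detection call was possible. The small number of arrays limits the precision.

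The members and lists were chosen with earlier results of these data known. Named pathway genes are those past the threshold and, in each role, up to 3 with the largest difference lying outside both untreated arrays. No genes were named for likeness of pattern, since 3 arrays give no measure of it. Alternatives were other normalisations and filters, means of a gene's probe sets, leaving out _s_at and _x_at probe sets, a trended prior variance, a 1.5-fold rule and leaving out each untreated array.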

Additional observations from a re-analysis of the deposited data

How the results depend on the processing

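No member passed limma in any alternative in which it was tested: 10 genes without a filter, 7 with the filter at the 60th percentile, 6 when probe sets were averaged, 7 without _s_at and _x_at probe sets and 8 otherwise. Single probe sets were refitted with quantile normalisation, centring on all probe sets, both other filters and the trended prior, and none from these genes passed. Of the pathway list CCN2 alone passed in each alternative. The count over all genes depended on the setting. It was 8 as reported, 4 after quantile normalisation, 136 and 50 when arrays were centred on all probe sets and on the tested genes, 4 without a filter, 21 with the filter at the 60th percentile, 3 when a gene's probe sets were averaged, 115 without _s_at and _x_at probe sets, and 31 with a trended prior variance. The higher share of calls was 62.5% as reported, 75.0% after quantile normalisation and without a filter, 81.6% and 42.0% with the centrings, and 40% without _s_at and _x_at probe sets. Centring on the tested genes moved the median gene by −0.20. With a 1.5-fold rule 1 of the 8 genes, SMAD3, lay outside both untreated arrays, as did 7.07% of genes. With either untreated array left out, the count past 2-fold was 0. Differences that turned sign were TGFBR1, from 0.54 to −0.037 when its probe sets were averaged and to −0.22 (under the filter, not tested) without _s_at probe sets, TGFBR2 to −0.17 when centred on the tested genes and −0.0020 when averaged, and SMAD2 to −0.16 and −0.11 in these settings and, without _s_at probe sets, −0.27. TGFB2, under the filter and not tested, went from 0.02 to −0.17 when its probe sets were averaged. With each untreated array left out in turn, TGFBR2 ran from −0.24 to 0.30, SKIL from −0.30 to 0.19 and TGFB2 from −0.0059 to 0.05. The lowest adjusted p of the members tested ran from 0.1 to 0.7. No paired analysis was possible because the treated group holds 1 array. A second pseudocount was not run, since the values are log2.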
